A study of Homo sapiens with 8 samples.

Results

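The tandem genes of 5S ribosomal RNA on chromosome 1 were examined in POLR3A ChIP-seq of MDA-MB-231, a human breast cancer cell line, and of MDA-LM2, its highly metastatic derivative. POLR3A is the largest subunit of RNA polymerase III. Each line had 2 ChIP libraries with a list of enriched hg19 regions each, and the 4 input libraries of the series were not analysed here. The members were all listed regions with a midpoint on chromosome 1 at 228.7 to 228.8 Mb. There were 32 such regions among the 1222 regions of the 4 lists. MDA-MB-231 replicates 1 and 2 held 15 and 0 of them, and MDA-LM2 replicates 1 and 2 held 15 and 2. Both lines were grown in DMEM with serum and fixed with 1% formaldehyde for 10 minutes, with no other treatment given. The labels do not tie the replicates to separate cultures, so p-values measure only the spread between these libraries, which could be technical.

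The 5S rRNA is a structural RNA of the large ribosomal subunit, and it is the only ribosomal RNA that RNA polymerase III makes. Its genes carry their promoter inside the transcribed sequence. TFIIIA binds this internal control region, TFIIIC and TFIIIB follow, and TFIIIB recruits the polymerase to the start of the gene. In the human genome the genes lie head to tail in repeats, each made of a short transcribed part and a long spacer. Repeats of this kind are near-identical in sequence, so a read of 50 nt can match several copies. The sources used here do not state how reads with several matches were placed. Which copies are listed, where their summits lie and the height of any 1 copy are uncertain for that reason.

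The regions formed a ladder of 17 evenly spaced copies, a count equal to the 17 genes named RNA5S1 to RNA5S17 in the RefSeq gene table of GRCh38.p14. Each of these genes is 121 nt long in that table, and in it RHOU, a protein-coding gene, and the pseudogene DUSP5P1 start between RNA5S16 and RNA5S17 and both span the latter. No hg19 annotation was used, so no copy was paired with a gene name, and copies are numbered here from the lowest hg19 position. A copy was a set of regions whose summits, the highest positions of the pile-up, lay within 1000 bp of the next. Joining regions by an overlap of at least 1 bp instead gave 19 copies, and no single library listed all 17. The count refers to hg19 positions and not to the number of repeats in these cells. The ladder ran over 36233 bp, from 228745864 to 228782096. No other region was listed near it. In MDA-LM2 replicate 1 the closest regions on either side were 24270 kb below and 20386 kb above the array. For MDA-MB-231 replicate 1 the closest region below was 24272 kb away, and none was listed above it on the chromosome.

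**Figure D1:**
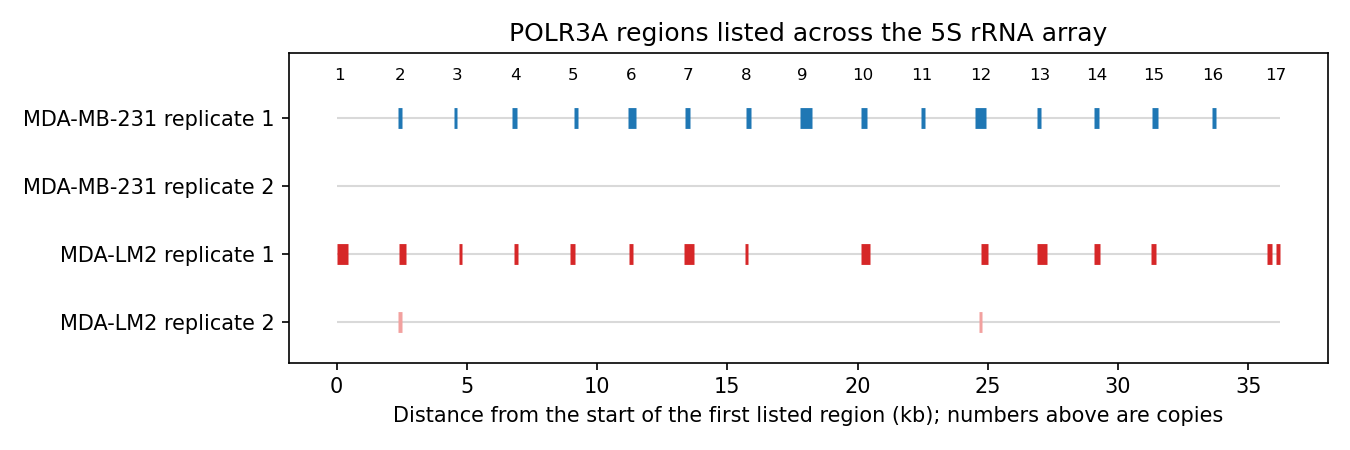
Position of every listed region in the array, in kb from the start of the first region, with 1 row per library. Bars span each region to scale and the numbers mark the 17 copies. MDA-MB-231 replicate 1 fills copies 2 to 16, MDA-LM2 replicate 1 fills 14 copies including both ends, MDA-LM2 replicate 2 has copies 2 and 12, and MDA-MB-231 replicate 2 has none.

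Of the 17 copies, 12 were listed in both lines, 3 in MDA-MB-231 and not in MDA-LM2, and 2 in MDA-LM2 and not in MDA-MB-231. MDA-MB-231 replicate 1 listed 15 copies without a break, from copy 2 to copy 16. MDA-LM2 replicate 1 listed 14 copies, from copy 1 to copy 17, and had no region at copies 9, 11 and 16. All of the overlap between lines rests on MDA-MB-231 replicate 1, and most of it on MDA-LM2 replicate 1. Without MDA-MB-231 replicate 1 no copy was listed in both lines, and without MDA-LM2 replicate 1 there were 2. No copy was listed in all 4 libraries, 2 were listed in 3, 10 in 2 and 5 in 1.

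The number of array regions differed less between the lines than between replicates of 1 line. The mean was 7.5 ± 10.6 for MDA-MB-231 and 8.5 ± 9.19 for MDA-LM2 (SD, n = 2 each). The exact two-sided permutation p was 1, and 2 libraries against 2 allow no value below 0.333. The difference, MDA-LM2 minus MDA-MB-231, was 1 region, and its sign depended on which library was omitted. It turned to -6.5 without MDA-MB-231 replicate 2 and to -5.5 without MDA-LM2 replicate 1. It stayed positive, at 8.5, without MDA-MB-231 replicate 1. Omitting MDA-LM2 replicate 2 gave 7.5. The libraries numbered 1 listed 15 array regions each and those numbered 2 listed 0 and 2, while the lengths of the whole lists were 646 and 86 for number 1 and 18 and 472 for number 2. Array regions made up 2.32% of the list of MDA-MB-231 replicate 1 (exact Clopper-Pearson 95% interval 1.31 to 3.80%) and 17.4% of that of MDA-LM2 replicate 1 (10.1 to 27.1%). In MDA-LM2 replicate 2 the share was 0.424% (0.0514 to 1.52%). In MDA-MB-231 replicate 2 none of 18 regions lay in the array, for which the exact interval reaches 18.5% and the limit of 3 counts in 18 is 16.7%. These intervals cover counting error only and treat regions as independent, which neighbouring copies with interchangeable reads are not. No difference between the lists can be read from them.

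The 2 copies listed in 3 libraries were copies 2 and 12. For a copy listed in more than 1 library, the positions given run from the lowest start to the highest end of its regions in all libraries. Copy 2 spanned 228748228 to 228748538 and had a height of 18 in MDA-MB-231 replicate 1, against 13 and 22 in MDA-LM2 replicates 1 and 2. Copy 12 spanned 228770362 to 228770863, with heights of 23, 12 and 20 in the same order. Height is the deposited pile-up at the summit, in whole numbers and with no correction for depth, and read totals were not among the sources used here, so heights are compared between copies of 1 library only. In MDA-MB-231 replicate 1 copy 12 was higher than copy 2, and in the MDA-LM2 libraries it was lower. The regions of MDA-LM2 replicate 2 at these copies were 148 and 142 bp wide, and their summits lay 22295 bp apart, a distance of 10 repeat units.

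Of the 10 copies listed in 2 libraries, all were found in the first replicate of each line. Copy 3, at 228750365 to 228750683, had a height of 24 for MDA-MB-231 and 9 for MDA-LM2. Copy 4, at 228752610 to 228752816, had 16 and 12, and copy 5, at 228754834 to 228755139, had 20 and 12. Copy 4 was the lowest of its MDA-MB-231 list's array regions, and copy 3 shared the lowest height in MDA-LM2 replicate 1. Copy 6, at 228757052 to 228757358, had heights of 24 and 13. Copy 7, at 228759216 to 228759583, had 21 and 16, with the summit at 228759367 in both libraries. Copy 8, at 228761557 to 228761782, had 20 and 10. Copy 7 was the only one of the 12 copies common to these libraries whose summit fell on the same base.

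The rest of the copies listed in 2 libraries lay farther along the array. Copy 10, at 228765982 to 228766359, had a height of 25 in MDA-MB-231 replicate 1, against 16 for MDA-LM2 replicate 1. Copy 13, at 228772746 to 228773132, had 17 and 14. Copy 14, at 228774944 to 228775192, had 27 and 15, the former being the highest array value of its library. Copy 15, at 228777147 to 228777388, had 22 and 13. In MDA-LM2 replicate 1, copies 6 and 15 carried the same height of 13 and the same strength score of 10.6, the authors' deposited measure of a region, and also the same deposited p-value score. They were the only 2 of its 86 regions to share all 3 values.

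The remaining 5 copies were listed in 1 library each. MDA-MB-231 replicate 1 listed copy 9, at 228763659 to 228764097, with a height of 24. It listed copy 11, at 228768300 to 228768457, with 25, and copy 16, at 228779465 to 228779622, with 17. Copies 9 and 11 thus stood above the median of 22 for that library's array regions, although MDA-LM2 replicate 1 did not list them. MDA-LM2 replicate 1 listed the outermost copies. Copy 1, at 228745864 to 228746298, had a height of 17, the highest of its array regions. Copy 17 held 2 separate regions, at 228781575 to 228781794 with a height of 14 and at 228781921 to 228782096 with a height of 9.

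**Figure D2:**
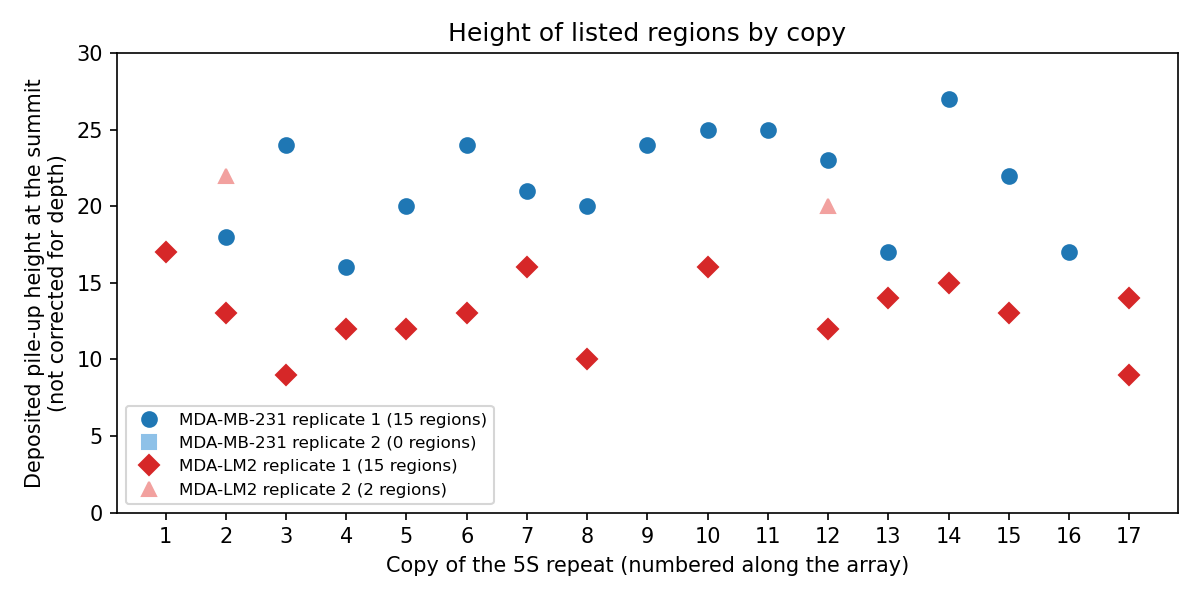
Deposited pile-up height of each listed region (vertical axis, not corrected for depth) by copy (horizontal axis), with 1 symbol per region and 1 kind of symbol per library. Heights run from 16 to 27 for MDA-MB-231 replicate 1 and from 9 to 17 for MDA-LM2 replicate 1. Levels of different libraries cannot be compared, since their depth is unknown.

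Heights varied little along the array within a library. In MDA-MB-231 replicate 1 the 15 regions had a mean height of 21.5 ± 3.42 (SD over regions), a coefficient of variation of 15.9%, against 71.0% for the other 631 regions of its list. The 15 regions of MDA-LM2 replicate 1 had 13 ± 2.45, a coefficient of variation of 18.8%, against 32.7% for its other 71 regions. The SD over copies was below the square root of the mean height, which was 4.64 and 3.61 in the same order. These lists hold only regions that passed the authors' threshold, so copies with lower signal are not in these ranges. Across the 12 copies common to both libraries, heights had a Spearman correlation of 0.25 and a Pearson correlation of 0.19. This describes neighbouring copies whose reads can match each other, and no order of the copies common to both lists can be read from it.

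The array took a different rank in each list that held it. A rank depends on which other regions passed the threshold of its list, so ranks in different lists do not compare signal. Heights of the whole list ran from 10 to 201 in MDA-MB-231 replicate 1 and from 7 to 27 in MDA-LM2 replicate 1. In MDA-MB-231 replicate 1 none of the 15 array regions exceeded the list's median height of 27, and their median percentile by height was 31.7 (8.51 to 49.5). In MDA-LM2 replicate 1, 12 of 15 exceeded the list's median of 11, and the median percentile was 69.2 (23.8 to 92.4). Of the 22 regions of that list above the 75th percentile, 6 belonged to the array, and 5 regions of the list were higher than its highest copy. In MDA-LM2 replicate 2 the heights of 20 and 22 stood at percentiles 49.7 and 56.99 of the list. That list held 223 regions lower than either of these, down to a height of 9. The heights of its 15 unlisted copies are unknown. In MDA-MB-231 replicate 2 the heights of the 18 listed regions, all outside the array, ran from 13 to 205.

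**Figure D3:**
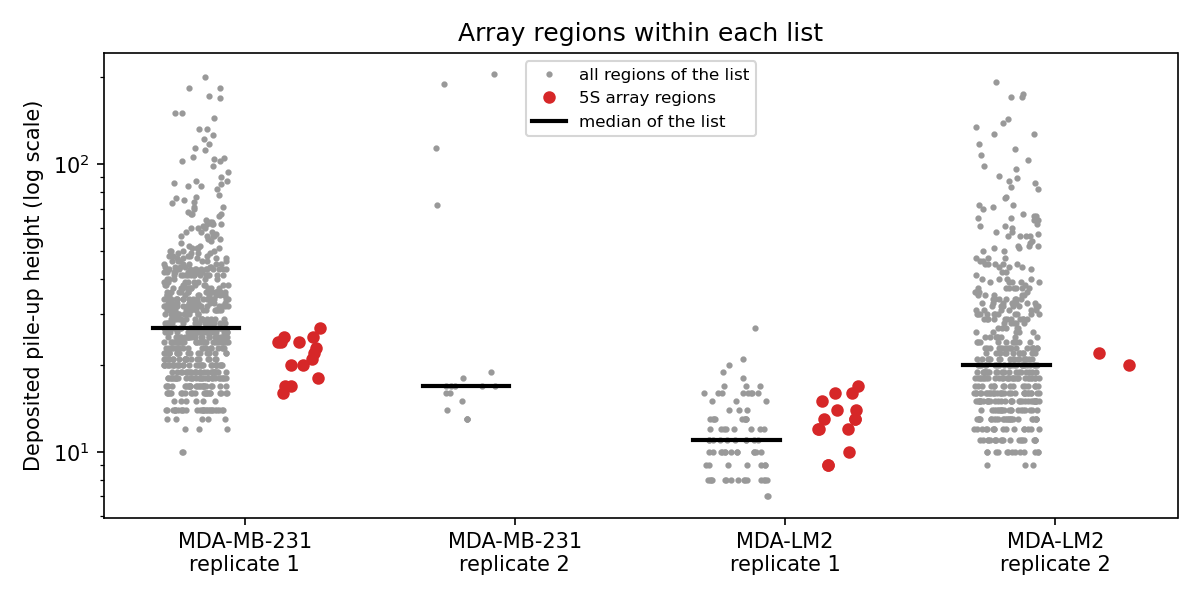
Deposited pile-up height on a log axis for all regions of each list (grey), with the list's median (black line), and for its array regions (red). Array regions of MDA-MB-231 replicate 1 lie at or below its median of 27, and 12 of 15 of MDA-LM2 replicate 1 lie above its median of 11. Points are spread sideways at random for legibility.

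The summits kept a nearly constant phase in the repeat unit. A straight line through all 32 summits against copy number gave a unit of 2235 ± 3.11 bp (SE), with a residual SD of 85.5 bp, or 3.82% of the unit. Fitted alone, MDA-MB-231 replicate 1 gave 2231 ± 3.54 bp and MDA-LM2 replicate 1 gave 2239 ± 5.33 bp (SE). The latter was longer by 8.52 ± 6.40 bp (SE), a difference of under 2 SE that rested largely on the second region of copy 17. With the higher region of each copy only, the units were 2231 and 2232 bp. The median steps of 1 unit, 2233 and 2186.5 bp, had the opposite order. These SEs treat summits as independent, which neighbours with interchangeable reads are not. Of 32 summits, 26 lay within 100 bp of the fitted position and 31 within 200 bp. Of 32 regions, 27 spanned the fitted position of their copy.

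Within a library the summits scattered around the common ladder by less than the width of most regions. For MDA-MB-231 replicate 1 the offsets had an SD of 61.1 bp and ran from -129 bp at copy 9 to 108 bp at copy 5. In MDA-LM2 replicate 1 the SD was 107 bp and the range was -100 bp at copy 15 to 318 bp at copy 17. The last value belongs to the second region of copy 17. With 1 region per copy, the higher one, the SD of MDA-LM2 replicate 1 was 68.2 bp. The first region of copy 17 had an offset of -27.3 bp and copy 1 had -22.0 bp, so the end copies of the array lay in phase with the others. In MDA-LM2 replicate 2 the offsets were 2.54 bp at copy 2 and -57.0 bp at copy 12.

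**Figure D4:**
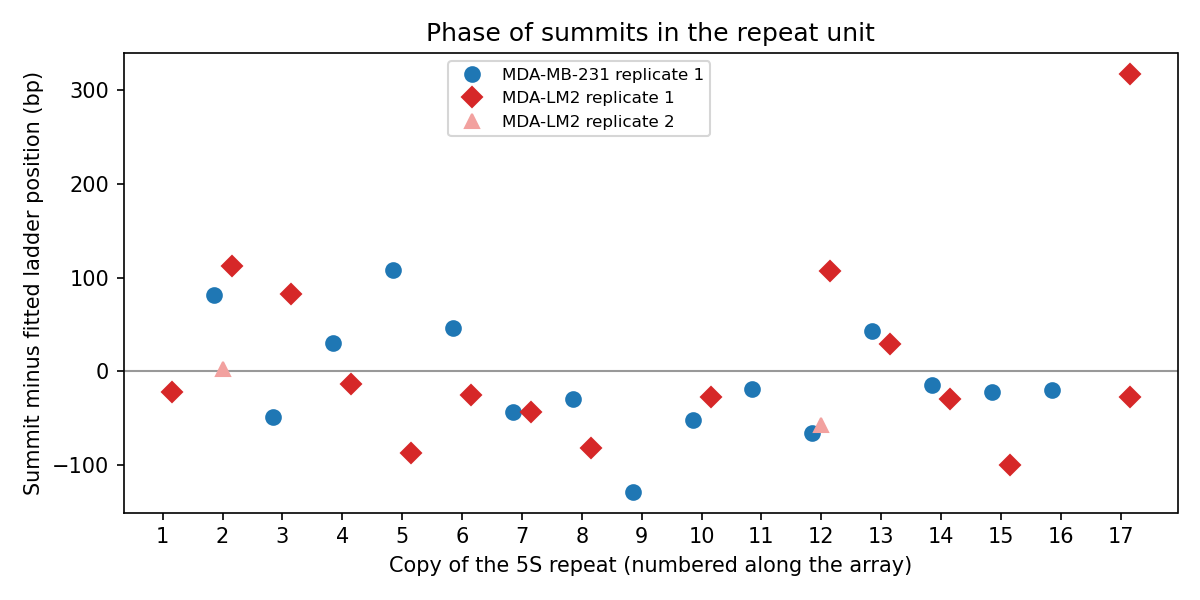
Offset of each summit from the fitted ladder position (bp, vertical axis) by copy (horizontal axis), with libraries moved slightly sideways for legibility. The offsets lie between -129 and 113 bp, apart from the second region of copy 17 in MDA-LM2 replicate 1 at 318 bp.

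Steps between neighbouring copies were close to the fitted unit. In MDA-MB-231 replicate 1 the shortest step, of 2105 bp, ran from copy 2 to copy 3 and the longest, of 2344 bp, from copy 12 to copy 13. MDA-LM2 replicate 1 had 10 steps of 1 unit, from 2140 to 2370 bp with a median of 2186.5 bp. Its 3 steps of 2 units, over the unlisted copies 9, 11 and 16, measured 4526, 4605 and 4544 bp. All 14 steps of MDA-MB-231 replicate 1 fell between 2000 and 2500 bp, against 23 of 608 steps between neighbouring summits elsewhere in its list (3.78%). For MDA-LM2 replicate 1, 10 of its 14 steps fell in this range, beside 3 of 53 elsewhere (5.66%). The members were chosen as tandem repeats and the range lies around their unit, so this contrast largely follows from the choice. It is given as a description only.

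Summits of the same copy differed in position between libraries. At the 12 copies common to the first replicates of both lines, the distance between summits had a median of 48.5 bp. The MDA-LM2 summit was at the higher position at 4 copies, at the lower at 7 and at the same base at 1. The extremes were 195 bp lower, at copy 5, and 173 bp higher, at copy 12. Between the MDA-LM2 replicates, the summits of copies 2 and 12 lay 110 and 164 bp apart. From MDA-MB-231 replicate 1 to MDA-LM2 replicate 2 the distances at these copies were 79 and 9 bp. Offsets of the same copy in these libraries had a Pearson correlation of -0.064 and a Spearman correlation of -0.077 over the 12 copies, given as a description of neighbouring copies.

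Regions of the same copy mostly overlapped between the first replicates of the lines. MDA-MB-231 replicate 1 had 15 array regions, of which 11 overlapped a region of MDA-LM2 replicate 1 by at least 1 bp, where 9.75% of all regions of its list did. The numbers were 2 of 15 in MDA-LM2 replicate 2, where 46.7% of the list did, and 0 of 15 in MDA-MB-231 replicate 2, where 2.48% did. These shares of 646 regions are limited by the lengths of the other lists, 86, 472 and 18 regions in the same order. At copy 3, common to both lines by its summits, the regions of the first replicates did not overlap and left a gap of 48 bp. MDA-LM2 replicate 1 also had 15 array regions, of which 11 overlapped one of MDA-MB-231 replicate 1 (84.9% of its list), 2 one of MDA-LM2 replicate 2 (65.1%) and 0 one of MDA-MB-231 replicate 2 (11.6%). MDA-LM2 replicate 2 had 2 array regions, and both were found in the first replicates of MDA-MB-231 (66.5% of its list) and MDA-LM2 (11.2%), and neither in MDA-MB-231 replicate 2 (3.39%). With a reciprocal overlap of 50%, the 11 shared by these first replicates came to 4, and the whole lists fell too, to 2.01% of the MDA-MB-231 list and 15.1% of the MDA-LM2 list.

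Array regions were short next to the unit. In MDA-MB-231 replicate 1 their widths had a median of 169 bp (137 to 438), against 283 bp for the rest of its list, and in MDA-LM2 replicate 1 the median was 219 bp (113 to 434), against 160 bp for the rest. Listed regions of the first replicates covered 9.02% (MDA-MB-231) and 10.0% (MDA-LM2) of the span of the array. Where the gene and the spacer lie within these regions was not determined, since no hg19 gene positions were used. The widest regions of MDA-MB-231 replicate 1 were those of copies 9 and 12, both 438 bp wide. The summit lay nearer the lower end of the region than the upper at 13 of 15 array regions of MDA-LM2 replicate 1, where 70.4% of the rest of its list did so. It did so at 9 of 15 for MDA-MB-231 replicate 1, against 53.7% of the rest.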

How the data were processed

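POLR3A was measured by ChIP-seq with 50 nt reads in 2 libraries per line, and chromatin had been sheared to 200 to 1000 bp, per the labels' protocols. The authors deposited 1 list of regions per library, so regions were called per library. Named in the submitters' processing notes are hg19, Bowtie2 2.2, DESeq and bedtools, without saying what each was used for. Which caller made the regions, at which threshold, and whether input was used is not given in the sources. The 11 columns have no header and were read from their values. The signal deposited is the pile-up height at the summit, in whole numbers. The score columns the authors deposited are a strength score and a p-value score of unknown base. The percent column the authors deposited gives the summit's place in the region, and in all 1222 rows it equals the distance from the start over the region's length with both ends counted. Whether positions count from 0 or 1 is not given. Depth is unknown.

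Copies were numbered from summits joined within 1000 bp and the ladder was a least-squares line. Percentiles are mid-ranks within a list. Lines were compared by an exact permutation test over libraries. Python 3.11.15, pandas 2.3.3, NumPy 2.4.6, SciPy 1.17.1 and matplotlib 3.10.9 were used. Every copy is named in the text, with the joined span of its regions where libraries shared it. Single features picked for their values (the tied scores, copies 9 and 11) were chosen after these were seen. The members and lists were chosen with earlier results of these data known. Alternatives covered the window, the height, the joining rule, the unit, the overlap, the replicate left out and the replicate number as a block.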

Additional observations from a re-analysis of the deposited data

How the results depend on the processing

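Of 71 alternative values for 24 results, 58 stayed within 1.5 times the reported count or within the spread, with the same sign. This tally does not measure robustness. It includes values of 0 against 0 for MDA-MB-231 replicate 2 and for overlaps with its list, several of which could only stay at 0. Also included are differences of the lines of 8.5 and 7.5 regions against 1, since the spread over 2 libraries per line is wide. As a percent of the list that difference was 7.77, in another unit. A window from 228.6 to 228.9 Mb, or placing regions by summit or overlap, gave the same counts in all 4 libraries. Keeping regions above the median height of their list left 0 array regions for MDA-MB-231 replicate 1, against 12 and 1 for MDA-LM2 replicates 1 and 2. Leaving out 1 library moved the difference of the lines between -6.5 and 8.5 regions and the copies listed in both lines between 0 and 12. With the replicate number as a block, the differences of the numbered pairs were 0 and 2 regions, with the same mean of 1. The exact sign-flip permutation p was 1, but every flip of 0 and 2 gives a mean of the same size. The sign-flip test therefore could not show a difference. The labels tie the pairs by number only. Under reciprocal overlap of 50%, the array regions that MDA-MB-231 replicate 1 shared with the MDA-LM2 replicates went from 11 to 4 and from 2 to 1, and the 2 shared by the MDA-LM2 replicates became 0. Over the whole lists these numbers went from 63 to 13 and from 302 to 109 of 646 regions, and from 56 to 22 of the 86 of MDA-LM2 replicate 1. With the higher region of each copy only, chosen after seeing the data, the phase SD of MDA-LM2 replicate 1 was 68.2 bp and the unit over all libraries 2232 bp. Depth is unknown, so an unlisted copy may be under the threshold of its list.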
